A study of Mus musculus with 71 samples.

Results

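The genes described here encode the MYC, MAX and MXD network of transcription factors. They are *Myc*, *Mycn*, *Mycl*, *Max*, *Mga*, *Mnt*, *Mlx*, *Mxd3* and *Mxd4*, 9 of the 21527 genes in the tables. They were selected by gene name, with earlier results of these data known, and all 9 had enough reads to be tested. Their read counts and the loss of their 4-thiouridine (s4U) label were measured by SLAM-seq in male mouse embryonic stem cells (mESC), pluripotent cells derived from the blastocyst. RNA was labelled with 100 µM s4U for 24 h, the label was then chased with uridine, and the s4U that remained was read as T-to-C conversions in sequences of the 3′ ends of transcripts. STM2457, a small-molecule inhibitor of the m6A methyltransferase Mettl3, was given at 20 µM from 6 h before the chase onwards, and the control cells received the solvent DMSO for the same time. Libraries were made at 0, 1, 1.5, 2.3, 3.5, 5.3, 8 and 12 h of chase, with 4 replicates of each treatment and 3 for STM2457 at 3.5 h, and each treatment had 4 further libraries without s4U. All groups were cultured in 2i/LIF medium, so the controls share the kinase inhibitors of that medium, and all libraries were made from one line.

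MYC, MYCN and MYCL are closely related helix-loop-helix leucine zipper proteins that bind E-boxes, of which CACGTG is the canonical form, and activate genes of ribosome production, metabolism and growth. They bind DNA as dimers with MAX. MNT, MGA and the MXD proteins dimerize with the same MAX and act as repressors, while MLX forms dimers with MNT, with some MXD proteins and with the glucose-responsive factors MondoA and ChREBP. In embryonic stem cells MYC proteins are linked to self-renewal and proliferation, and the mRNAs of *Myc* and *Mycn* are known as short-lived.

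In GRCm38 the MYC genes lie at chr15:61985391-61990374 on the plus strand (*Myc*), chr12:12936093-12941914 on the minus strand (*Mycn*) and chr4:122995652-123002485 on the plus strand (*Mycl*). *Max* lies at chr12:76937269-76962201 on the minus strand. Of its partners, *Mnt* (chr11:74830920-74845725) and *Mga* (chr2:119897228-119969581) are on plus strands, and *Mxd3* (chr13:55325168-55329823) and *Mxd4* (chr5:34173883-34187720) on minus strands. *Mlx* lies at chr11:101087277-101092207 on the plus strand. Reads were counted in windows at the 3′ ends of these genes.

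The letters that bear on these measurements are of 2 kinds, the E-box, which these proteins bind, and GGAC, the core of the m6A consensus. CACGTG, which reads the same on both strands, was present in 7.15% of 32851 RefSeq promoters of 300 bases (GRCm38.p6). Of the 8 genes with a promoter sequence, *Max*, *Mnt*, *Mlx* and *Mxd4* held it once each, and *Mycn*, *Mycl*, *Mga* and *Mxd3* did not hold these letters in that window. The 26 bases around each match are shown with the E-box in capitals, in the direction of transcription.
*Max*, chr12:76962236-76962261, minus strand: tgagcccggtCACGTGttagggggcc
*Mnt*, chr11:74830791-74830816, plus strand: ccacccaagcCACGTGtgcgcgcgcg
*Mlx*, chr11:101087240-101087265, plus strand: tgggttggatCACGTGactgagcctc
*Mxd4*, chr5:34187914-34187939, minus strand: gctgggccacCACGTGctgttgctaa

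The m6A motif was searched on the sense strand as GGAC followed by any base but G, and it occurred at least once in 97.9% of 19769 protein-coding transcripts, 1 per gene, with a median of 8 per transcript, and in the 3′ UTR of 75.4% of them (GENCODE M21, GRCm38). *Mycn* had 6 in its coding sequence and 3 in its 3′ UTR, *Myc* had 7 and 1, *Mycl* 6 and 12, and *Max* 2 and 4. Among the repressors, *Mnt* had 3 and 13, *Mga* 26 and 7, *Mxd3* 3 and 3, and *Mxd4* 3 and 19, and *Mlx* had 5 and 2. These are occurrences of letters, and m6A was not measured in these libraries. The matches below were chosen because they lie in the genes whose reads or label loss the results turn on, with *Myc* for comparison. The first pair lies in corresponding coding stretches of *Myc* and *Mycn*, which share 18 of 21 bases, followed by those in the 3′ UTR of *Mycn* and 1 each from the 3′ UTRs of *Max* and *Mnt*. The motif is in capitals.
*Myc*, coding sequence, chr15:61987909-61987929, plus strand: atcatccaGGACTgtatgtgg
*Mycn*, coding sequence, chr12:12940040-12940060, minus strand: atccttcaGGACTgcatgtgg
*Mycn*, 3′ UTR, chr12:12936980-12937000, minus strand: tcccacacGGACAgtcactgc
*Mycn*, 3′ UTR, chr12:12936853-12936873, minus strand: agggggcaGGACAcggggttc
*Mycn*, 3′ UTR, chr12:12936749-12936769, minus strand: gaagttcgGGACActaaggag
*Max*, 3′ UTR, chr12:76938151-76938171, minus strand: tgtttggtGGACTttgtgact
*Mnt*, 3′ UTR, chr11:74845431-74845451, plus strand: tacagtgaGGACTtggtcact

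The libraries held 4539726 to 7368244 reads counted on genes, with a median of 5726508. Of the pluripotency markers, *Pou5f1* was present at 647 to 1050 CPM (reads scaled to the library's total) and *Nanog* at 132 to 473 CPM in every library, while the endoderm and fibroblast markers *Gata6*, *Sox17*, *Col1a1* and *Col1a2* stayed at 2.64 CPM or less. The pluripotency markers *Dppa5a*, *Esrrb*, *Zfp42* and *Tfcp2l1* were also found in every library. *Klf4*, another of them, was low, with a median of 2.71 CPM and no reads in 3 libraries. The summed level of 8 markers of other cells was 157 to 336 CPM in DMSO and 154 to 310 CPM in STM2457, most of it from *Vim*, and *T*, *Cdx2* and *Gata4* were also detected in every library. The first principal component of the libraries held 35.8% of the variance and followed the number of T positions covered per read (17.9 to 20.3, Pearson's r = 0.91 over 71 libraries of 18 groups). In this number the libraries of the treatments did not overlap at 1.5 h (19.1 in DMSO and 19.8 in STM2457 on average) and 12 h (19.8 and 20.1). *Mycn* had lower CPM in libraries with more covered T positions per read (−0.33 log2 units per SD of that component), and *Max* had higher CPM (0.16).

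In DMSO at 0 h, *Mycn* had the highest level of the 9 genes per kb of counted 3′ window, at 394 CPM per kb (SD 15.6, n = 4). *Myc* and *Mycl* had levels of 17.2 ± 4.81 and 20.9 ± 4.19 CPM per kb. *Max*, the common partner, had 193 ± 32.9 CPM per kb, *Mlx* had 144 ± 26.5 and the repressor *Mnt* had 138 ± 10.7. *Mga* followed with 56.4 ± 4.09, *Mxd4* with 24.3 ± 7.24 and *Mxd3* with 22.3 ± 2.27 CPM per kb. On this scale *Mycn* lay apart from all others. The 4 libraries of *Max* overlapped with those of *Mlx*, and those of *Mlx* with those of *Mnt*. *Mga* lay apart from its neighbours, and each of *Mxd4*, *Mxd3*, *Mycl* and *Myc* overlapped with the next. The levels are per length of the counted window, which spans 250 to 857 bases, and the order depends on this division. In CPM without it, *Max* had 112 (91.6 to 136) and *Mycn* 101 (98.5 to 107), which overlap. *Mga* had 48.3 CPM and *Mnt* 36.7 CPM. *Myc* was represented by only 1 to 74 reads per library and *Mycl* by 8 to 85, which limits all statements on these genes, whereas *Mycn* had 99 to 943 and *Max* 377 to 1161.

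**Figure D1:**
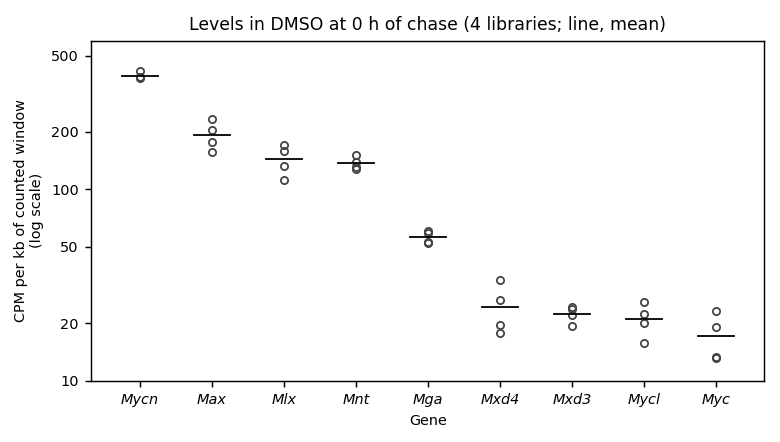
Levels of the 9 genes in DMSO at 0 h of chase, as CPM per kb of counted 3′ window on a log axis; points are the 4 libraries and lines their means. On this scale *Mycn* lies above all others at 394 CPM per kb, and *Myc* is lowest at 17.2.

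Among the differences between treatments that passed the test in any member, the largest was that of *Mycn* at 12 h. In DMSO at 0 h, the 4 libraries held 98.5, 107, 99.7 and 98.7 CPM, and after 12 h of chase they held 19.9, 21.7, 23.9 and 22.9 CPM. With STM2457 they held 122, 145, 112 and 95.5 CPM at 0 h and 77.3, 67.3, 63.8 and 62 CPM at 12 h. At 0 h the groups overlapped, and at 12 h every STM2457 library held more *Mycn* than every DMSO library, with a mean 3.06 times as high. Of all genes, 9.21% had STM2457 libraries above DMSO without overlap at 12 h, 7.09% at 8 h and 8.56% at 3.5 h. Between these times the treatments were alike at 2.3 h, with 66.5 to 76.1 CPM in DMSO and 65.7 to 81.2 CPM in STM2457. They did not overlap at 3.5 h, with 44.5 to 53.4 CPM against 70.4 to 76.2 CPM. At 5.3 h DMSO libraries held 67 to 97.0 CPM and STM2457 libraries 65.2 to 76.9 CPM, and at 8 h the groups were apart again, with 37.6 to 52.1 CPM against 68.5 to 100.1 CPM.

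**Figure D2:**
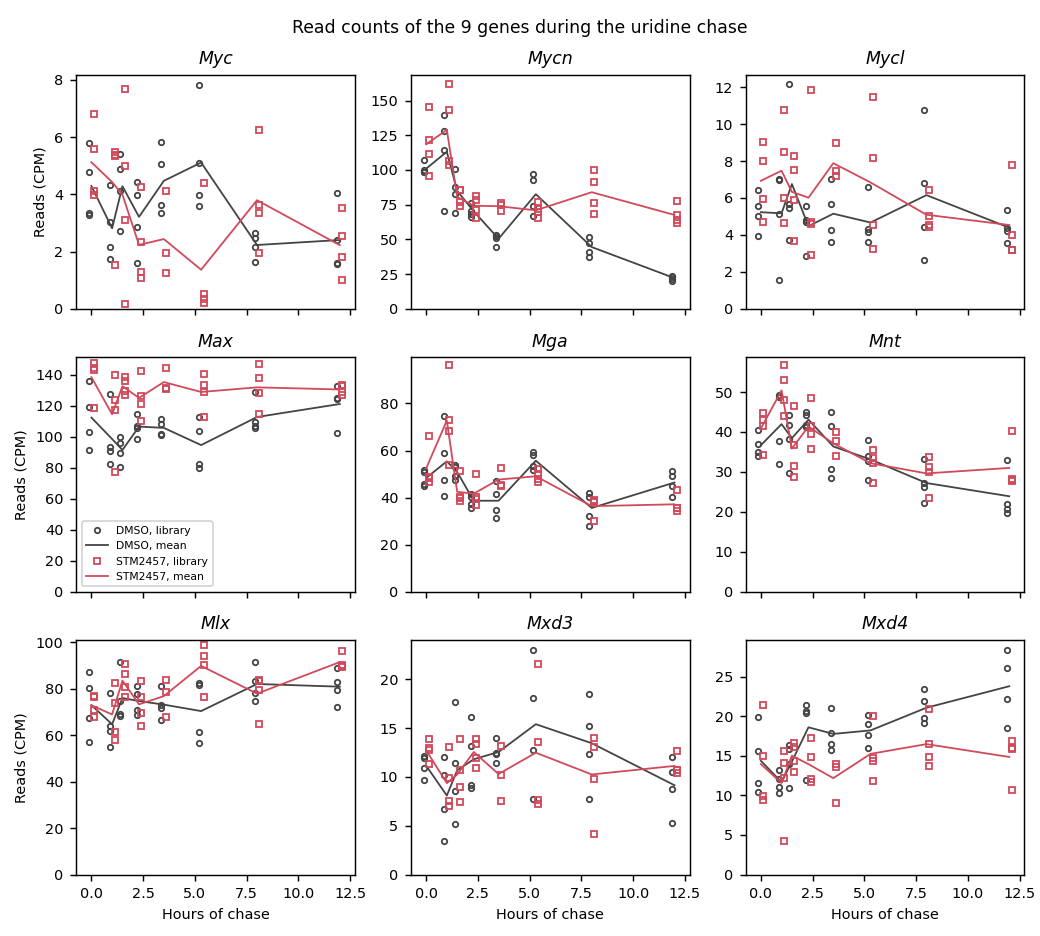
Read counts of the 9 genes in CPM after TMM scaling, against hours of chase; points are libraries, lines join the means of 3 or 4 libraries, grey circles are DMSO and red squares STM2457. *Mycn* declines to 19.9 to 23.9 CPM in DMSO at 12 h and to 62 to 77.3 CPM with STM2457.

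To ask whether transcript levels changed with Mettl3 inhibition, read counts were compared with edgeR's quasi-likelihood test at an adjusted p under 0.01. Averaged over the 8 time points of chase, 2 of the 9 genes were higher in STM2457, against 13.8% of all 12659 genes tested, and 0 were lower, against 12.5% of all genes. The 2 genes were *Mycn* (log2 fold change 0.41, SE 0.05, adjusted p = 3.7e-10) and *Max* (0.30, SE 0.05, adjusted p = 4.4e-08). The median over the 9 genes was 0.09, and over all genes −0.01. TMM scaling places the middle of all genes near 0, so these fold changes are relative to the other genes. A shift shared by most genes would not be seen. At 12 h *Mycn* was the one member called higher, a direction shared by 3.92% of genes, and its log2 fold change was 1.61 (SE 0.15, adjusted p = 2.2e-13). With covered T positions per read as a covariate, added after seeing the data, it was 1.68 at 12 h (adjusted p = 7.1e-18). At 8 h it was 0.92 (SE 0.15, adjusted p = 7.2e-06), where 1.79% of genes were called higher. At 0 h, after 6 h of inhibitor, it was 0.23 (SE 0.14, adjusted p = 0.45), and none of the members was called at that time, where edgeR called 1.27% of all genes higher and 0.45% lower. *Max* was the 1 member with an unadjusted p under 0.05 at 0 h, against 15.9% of all genes, and DESeq2 called no member there. *Mycn* was also not called at 3.5 h (0.55, SE 0.16, adjusted p = 0.034), where 1.03% of genes were higher, at 1 h (1.15%), 2.3 h (1.26%) or 5.3 h (2.35%).

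Within each treatment, *Mycn* reads fell between 0 and 12 h of chase. The log2 change was −2.19 in DMSO (SE 0.15, adjusted p = 5.4e-20) and −0.81 in STM2457 (SE 0.14, adjusted p = 3.7e-05). The test of the difference between these changes gave 1.38 (SE 0.21, adjusted p = 4.8e-06), a call shared in this direction by 0.916% of all genes, with 0.19% in the other. *Mycn* and *Mnt* were the 2 members that fell in DMSO, and *Mycn* the 1 that fell in STM2457. In DMSO 8.24% of all genes fell between 0 and 12 h, and in STM2457 3.12% did, while 4.76% and 1.72% rose. These 3 calls for *Mycn* were kept in all 16 alternative fits. In the libraries of a bulk culture, fewer cells expressing a gene and less of its RNA per cell cannot be told apart. Of the pluripotency genes, 4 of 7 tested were called higher in STM2457 at 12 h, as were 3.92% of all genes. Their median log2 fold change was 0.69, against −0.03 for all genes. Of the markers of other cells, 1 of 5 tested was called higher, *Cdx2* (1.11, adjusted p = 0.00051), and their median was 0.57. In the difference of the 0 to 12 h changes 1 of the 7 pluripotency genes was called higher, with a median of 0.21. Of the 5 other markers 0 passed, with a median of 1.12. The median of all genes in this difference was −0.03. The part of either list in the difference of *Mycn* was not tested.

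*Max* differed by less on average over the chase, and its mean was higher in STM2457 at every time of chase. At 0 h its libraries held 103, 91.6, 119 and 136 CPM in DMSO and 143, 145, 119 and 148 CPM in STM2457, which overlap. They did not overlap at 1.5 h (11.5% of all genes), 3.5 h and 5.3 h (8.22% of all genes). At 3.5 h they held 101 to 112 CPM in DMSO and 131 to 144 CPM in STM2457, and the unlabelled libraries did not overlap either, with 95.8 to 139 CPM against 142 to 177 CPM (6.15% of all genes). At 12 h the groups lay together, with 103 to 133 CPM and 127 to 133 CPM. The separate test at 1.5 h was passed (log2 fold change 0.54, SE 0.13, adjusted p = 0.0017), where 3.91% of genes were called higher. It was not passed with covered T positions per read as a covariate (0.31, adjusted p = 0.084) or when DMSO replicate 2 (0.49, adjusted p = 0.013), STM2457 replicate 1 (0.52, adjusted p = 0.0103) or STM2457 replicate 2 (0.51, adjusted p = 0.012) was left out. The difference averaged over the chase was 0.25 with the covariate (adjusted p = 3.1e-08) and 0.23 over 2.3, 3.5, 8 and 12 h alone (adjusted p = 0.0049). Of the reads on *Max*, 5.72% also mapped elsewhere, and without such reads the averaged difference was 0.34.

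**Figure D3:**
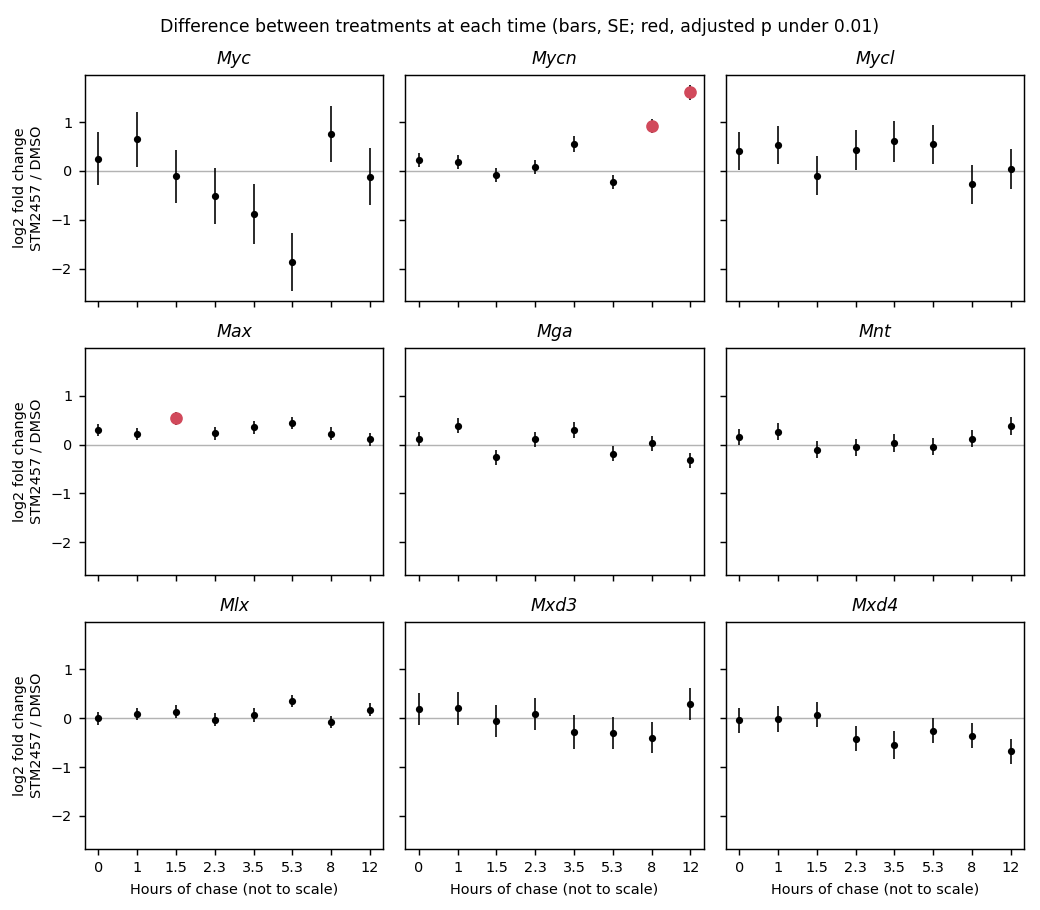
log2 fold change of STM2457 against DMSO at each time of chase for the 9 genes, with SE; time points are evenly spaced, and red points passed an adjusted p under 0.01 in edgeR's quasi-likelihood test. *Mycn* passes at 8 and 12 h and *Max* at 1.5 h, and no other point does.

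Among the repressors, *Mxd4* lay lower in STM2457 late in the chase. In DMSO its libraries held 15.6, 11.6, 19.9 and 10.4 CPM at 0 h and 28.4, 18.5, 26.2 and 22.2 CPM at 12 h, while STM2457 libraries held 16, 16.9, 15.9 and 10.7 CPM at 12 h. The treatments did not overlap at 3.5 and 12 h, where 7.14% and 8.7% of all genes lay below DMSO in this way, and overlapped at all other times. The averaged log2 fold change of −0.28 (SE 0.09, adjusted p = 0.011) missed the threshold, as did the difference of −0.68 at 12 h (SE 0.25, adjusted p = 0.072) and the change of 0.72 from 0 to 12 h in DMSO (SE 0.25, adjusted p = 0.028). The averaged difference passed in 8 of 16 alternative fits, among them DESeq2 (−0.29, adjusted p = 0.0079), and the change in DMSO passed in 1.

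*Mnt*, the MAX and MLX partner that represses in proliferating cells, fell in DMSO from 37.1, 40.5, 34.1 and 35 CPM at 0 h to 33, 21.9, 19.8 and 20.8 CPM at 12 h (log2 change −0.62, SE 0.18, adjusted p = 0.0065). One of the 12 h libraries lay close to the 0 h libraries and the other 3 lay below. This call was kept in 9 of 16 alternative fits. It was lost without DMSO replicate 2 (−0.55, adjusted p = 0.061), 3 (adjusted p = 0.035) or 4 (adjusted p = 0.031), and its adjusted p was 0.019 with covered T positions per read as a covariate and 0.04 with scaling by total counts. In STM2457 the change was −0.40 (SE 0.17, adjusted p = 0.14), and the difference between treatments was 0.22 (SE 0.25, adjusted p = 0.77).

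*Mga*, a large repressor that also belongs to a Polycomb complex, *Mlx* and *Mxd3* were not called in any of the 15 comparisons of reads. *Mga* held 44.8 to 51.7 CPM in DMSO and 46.4 to 66.2 CPM in STM2457 at 0 h, and its averaged log2 fold change was 0.02 (SE 0.05, adjusted p = 0.78). *Mlx* held 57 to 87.2 CPM and 67.8 to 76.8 CPM at 0 h, with an averaged difference of 0.09 (SE 0.05, adjusted p = 0.11). At 12 h its STM2457 libraries, at 89.3 to 96.3 CPM, lay just above those in DMSO, at 71.9 to 89.0 CPM. Of all genes, 9.21% lay above DMSO without overlap at that time. In edgeR the log2 fold change of *Mlx* at 12 h was 0.18 (adjusted p = 0.45). With covered T positions per read as a covariate it was 0.08 (adjusted p = 0.71). *Mxd3*, an MXD protein associated with the S phase of the cell cycle, held 9.63 to 12.1 CPM and 11.4 to 13.9 CPM at 0 h, and its averaged difference was −0.03 (SE 0.12, adjusted p = 0.85).

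The remaining MYC genes were read sparsely. *Myc* had an averaged log2 fold change of −0.23 (SE 0.20, adjusted p = 0.40), with 3.29, 4.76, 3.34 and 5.78 CPM in DMSO and 3.97, 4.10, 6.81 and 5.60 CPM in STM2457 at 0 h. At 5.3 h it was represented by 1, 3, 2 and 26 reads in the STM2457 libraries and by 21, 41, 24 and 19 reads in DMSO (log2 fold change −1.87, SE 0.59, adjusted p = 0.028), which did not pass, and the value with the covariate was −1.84 (adjusted p = 0.032). The groups overlapped through the library with 26 reads. *Mycl* had an averaged difference of 0.27 (SE 0.14, adjusted p = 0.13), and its groups did not overlap at 3.5 h, with 3.64 to 7.01 CPM in DMSO and 7.21 to 8.98 CPM in STM2457, where 8.56% of all genes lay above DMSO in this way. Nor did they in the unlabelled libraries, with 5.72 to 8.89 CPM and 9.84 to 17.4 CPM (0.66, SE 0.38, adjusted p = 0.35), where 6.15% of all genes did so.

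Labelling itself left the members' reads without a call. Between the libraries at 0 h of chase and the unlabelled libraries of the same treatment, 0 of 9 members passed in DMSO, where 0.34% of all genes were higher and 0.229% lower at 0 h, and 0 of 9 in STM2457, where 0.3% were higher and 0.245% lower. At an unadjusted p under 0.05, edgeR listed 3 members in DMSO (*Mlx*, *Mnt* and *Mxd4*) and 3 in STM2457 (*Mnt*, *Mxd4* and *Mycl*), against 11.3% and 12.4% of all genes, and DESeq2 called 0 of 9 in both at an adjusted p under 0.01. Of these, *Mxd4* had a log2 difference of 0.60 in DMSO (SE 0.26, adjusted p = 0.31) and 0.78 in STM2457 (SE 0.26, adjusted p = 0.13). Between the unlabelled libraries of both treatments 0 of 9 members passed in edgeR and in DESeq2, where edgeR called 1.75% of all genes higher and 0.861% lower. *Max* was the 1 member with an unadjusted p under 0.05 in edgeR (0.44, SE 0.13, adjusted p = 0.021), against 19.8% of all genes.

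The loss of label was used to ask how fast these transcripts decay. At 0 h, 1.37% ± 0.077 of the covered T positions of *Mycn* were converted in DMSO and 1.39% ± 0.15 in STM2457 (SD, n = 4 each). For *Max* the rates were 1.41% ± 0.13 and 1.21% ± 0.082, and for *Mnt* 1.43% ± 0.21 and 1.33% ± 0.15. The unlabelled libraries held 0.108% ± 0.079 and 0.0231% ± 0.024 for *Mycn*, so that 0 h lay well above the background of both treatments. A difference in conversions at 0 h was not called in any of 10077 transcripts tested with edgeR, and 105 of them had an unadjusted p under 0.05. This is fewer than would pass that limit with no difference at all, so the test was conservative and could miss differences. The median log2 difference over these transcripts was −0.11, and the libraries' overall rates averaged 1.37% in DMSO and 1.28% in STM2457. For *Mycn* the log2 difference was 0.02 (SE 0.34), and for *Max* it was −0.22 (SE 0.26).

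*Mycn* lost its label faster than most transcripts in both treatments. After subtraction of the unlabelled background, 66.2%, 40.2%, 23.8% and 8.48% of its 0 h rate remained at 1, 1.5, 2.3 and 3.5 h in DMSO. With STM2457 83.7%, 52.3%, 49.5% and 20.4% remained, more at each of these times. The median over all transcripts was 86.1%, 75.0%, 74.8% and 59.5% in DMSO and 87.0%, 82.8%, 77.9% and 60.2% in STM2457. *Mnt* kept 30.5%, 35.4%, 32.1% and 26.2% in DMSO and 56.1%, 68.5%, 57.5% and 22.8% with STM2457, more at the first 3 times and less at 3.5 h. *Max* kept 34.3% and 53.4% at 3.5 h.

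**Figure D4:**
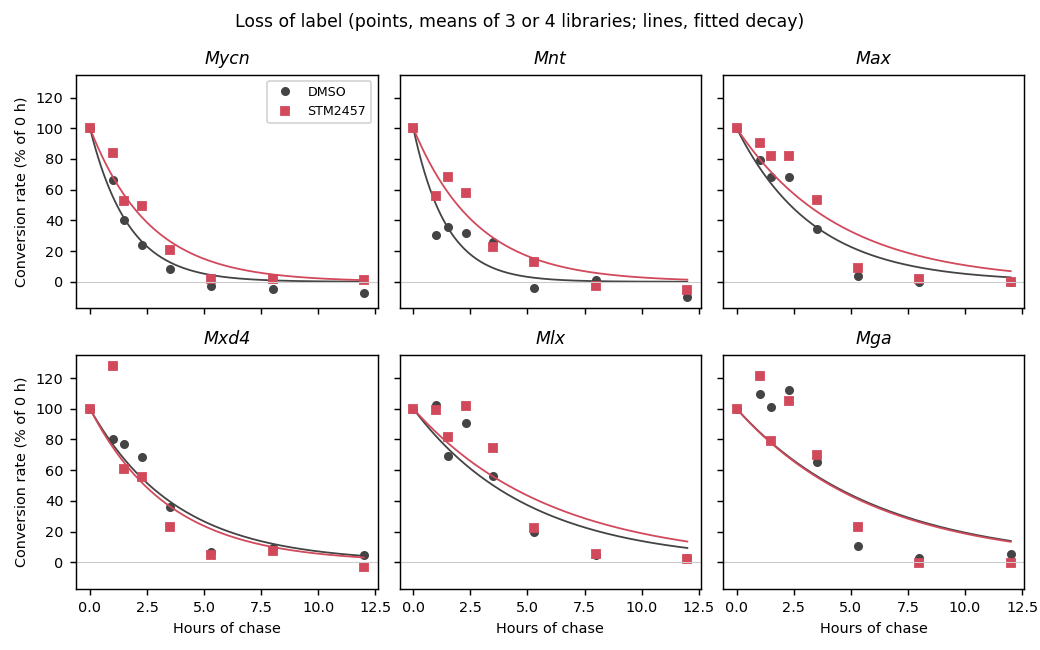
Conversion rate after background subtraction, as a percentage of the rate at 0 h, against hours of chase for 6 genes; points are means of 3 or 4 libraries (grey circles DMSO, red squares STM2457) and lines the fitted exponential decays. The points of *Mycn* fall to 8.48% in DMSO and 20.4% in STM2457 by 3.5 h, while *Mga* is at 112% and 105% and *Mlx* at 90.7% and 102% at 2.3 h.

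Conversions at 1 to 3.5 h were compared with those at 0 h by edgeR at an adjusted p under 0.05. In DMSO they fell for *Mycn* (log2 difference −1.52, SE 0.26, adjusted p = 5.2e-06), *Mnt* (−1.40, SE 0.41, adjusted p = 0.022) and *Max* (−0.69, SE 0.20, adjusted p = 0.022), that is for 3 of 9 members against 6.01% of all transcripts. In STM2457 they fell for *Mycn* (−1.09, SE 0.26, adjusted p = 0.0094), 1 of 9 members against 1.52% of all transcripts. The losses of *Mnt* and *Max* in STM2457 were −0.97 (adjusted p = 0.22) and −0.38 (adjusted p = 0.32). The difference between treatments was tested directly and not passed by any transcript, with 109 of 10077 at an unadjusted p under 0.05. This test too was conservative, so the lack of a call does not show that the losses were alike. The difference was 0.43 for *Mycn* (SE 0.39), 0.42 for *Mnt* (SE 0.62) and 0.30 for *Max* (SE 0.30). When the overall conversion rate of each library entered the fit, the loss of *Mycn* still passed in DMSO, and the losses of *Mnt* (adjusted p = 0.28) and *Max* (adjusted p = 0.57) in DMSO and of *Mycn* in STM2457 (adjusted p = 0.26) did not. Without single replicate series the adjusted p reached 0.20 for *Max* (DMSO replicate 1, also lost without 2 or 3), 0.10 for *Mnt* (DMSO replicate 1, also lost without 2, 3 or 4) and 0.11 for *Mycn* in STM2457 (replicate 3, also lost without 4).

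Half-lives fitted to the means over replicates were 1.18 h in DMSO and 1.82 h in STM2457 for *Mycn*. Only 2.46% of the 7408 transcripts that met the filters in both treatments had a shorter half-life in DMSO, and 7.42% in STM2457. The medians of these transcripts were 3.19 and 3.45 h. *Mnt* had 1.00 and 1.94 h, with 1.19% and 9.23% of transcripts shorter. *Max* had 2.34 and 3.11 h, *Mxd4* 2.62 and 2.40 h, *Mlx* 3.51 and 4.16 h, and *Mga* 4.22 and 4.13 h. At 2.3 h 90.7% of the label of *Mlx* and 112% of that of *Mga* remained in DMSO, and at 5.3 h 10.8% of that of *Mga*. A single exponential left larger residual standard errors for them (0.16 and 0.26 in DMSO) than for *Mycn* (0.063). *Mycl* and *Mxd3* did not meet the filters, since the residual standard error of *Mycl* was 0.54 in STM2457 and *Mxd3* showed no fitted decay there. *Myc* did meet them, at 2.41 and 6.06 h, but with a mean of only 521 and 457 covered T positions per library, and in 6 of 8 fits that left out 1 replicate series it no longer did.

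To judge these values against replicate error, half-lives were fitted in 4 series per treatment, each made of the libraries with one replicate number. The series of a treatment share the mean background of its unlabelled libraries, so their spread and the tests on them leave out error in that background. *Mycn* had 1.24, 1.28, 1.08 and 1.13 h in DMSO and 2.43, 1.98, 1.57 and 1.49 h in STM2457. The series did not overlap, which gives p = 0.0286 in a two-sided exact permutation test, the smallest that 4 against 4 can give. Adjusted over the 6 members tested in this way, the exact permutation p was 0.114. Among 5772 transcripts with a half-life in all series, STM2457 lay above DMSO without overlap in 2.62% and below in 1.73%. In limma the log2 ratio of *Mycn* was 0.64 (SE 0.24, 95% interval 0.10 to 1.18), and its adjusted p over all these transcripts was 0.72. Without background subtraction its half-lives from the replicate means were 1.39 and 1.88 h, and the limma ratio was 0.44 (95% interval −0.10 to 0.98). The lower limit was also negative over 0 to 5.3 h, without DMSO replicate 3 or 4, and without STM2457 replicate 1 or 2. None of the 5772 passed an adjusted p under 0.05 in limma, and 392 had an unadjusted p under 0.05.

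The other members overlapped between treatments. *Max* had 1.49, 2.32, 2.60 and 3.09 h in DMSO and 2.69, 3.13, 3.24 and 3.25 h in STM2457 (log2 ratio 0.42, exact permutation p = 0.0571). *Mnt* had 0.515, 1.58, 0.972 and 0.973 h in DMSO and 2.00, 1.70, 1.52 and 2.93 h in STM2457 (log2 ratio 1.07, exact permutation p = 0.0571), and it was left out of limma because 1 series fell below the filter of 0.67 h. The log2 ratios were −0.09 for *Mga* (exact permutation p = 0.486), 0.24 for *Mlx* (exact permutation p = 0.457) and 0.22 for *Mxd4* (exact permutation p = 0.771), whose half-lives from the replicate means differed by −0.12. These were 6 exact tests, with p-values given before adjustment. Adjusted over the 6, the exact permutation p was 0.114 for *Mycn*, *Max* and *Mnt* alike, 0.583 for *Mga* and *Mlx*, and 0.771 for *Mxd4*. The limma 95% intervals were −0.59 to 0.41 for *Mga*, −0.47 to 0.95 for *Mlx* and −1.11 to 1.55 for *Mxd4*. In this fit the ratio measured for *Mycn* (0.64, with an interval of 0.10 to 1.18) lay outside the interval of *Mga* alone. Over 0 to 5.3 h the interval of *Mga* was −0.84 to 0.83, which holds that ratio.

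**Figure D5:**
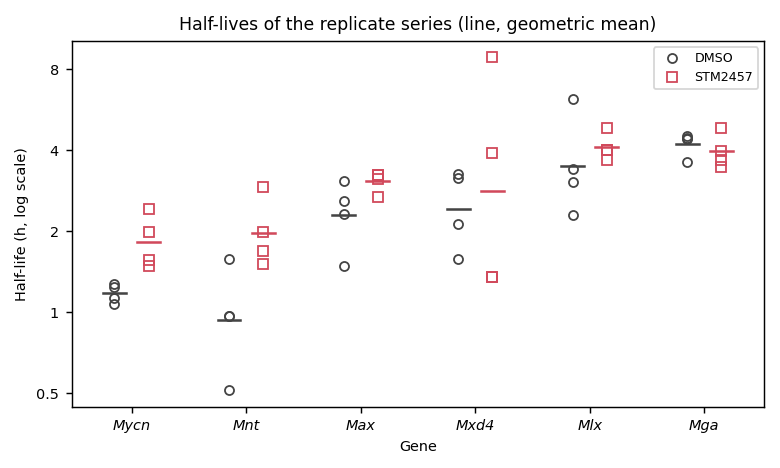
Half-lives of 6 genes in the 4 replicate series of each treatment, on a log axis; grey circles are DMSO, red squares STM2457 and lines geometric means. The *Mycn* series do not overlap (1.08 to 1.28 h against 1.49 to 2.43 h), and those of the other 5 genes do.

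The genes whose levels followed a member most closely were sought over the 18 group means among 7952 genes with a mean of at least 10 CPM. These groups share treatments, times and the differences in covered T positions per read, and the correlations are descriptions. *Mycn* was followed by *Nip7* (Pearson's r = 0.95), which encodes a ribosome biogenesis factor, by *1600012H06Rik* (0.94) and by the row named *Mir295* (0.93). *Max* was followed by *Nop2* (0.93), a nucleolar RNA methyltransferase, *Rhog* (0.92) and *Kcnk1* (0.91), and *Mnt* by *Fbxo45* (0.89), *Mcl1* (0.87) and *Eif4a2* (0.85). *Mxd4* was followed by *Rec8* (0.90), *Metap1d* (0.89) and *Srgap3* (0.89), *Mga* by *Rxylt1*, *Snhg12* and *Usp31* (0.89, 0.89 and 0.88), and *Mlx* by *Kdelr2*, *Rbfa* and *Suds3* (0.87, 0.87 and 0.86). The sparse genes *Myc* (0.80 with *Nap1l1*, 0.80 with *Ccnd1* and 0.78 with *Ybx3*), *Mycl* (0.83 with *Gpx4*, 0.80 with *Wdr43* and 0.78 with *Xpo4*) and *Mxd3* (0.73 with *Uqcrh*, 0.69 with *Pgap1* and 0.69 with *Top2a*) had lower maxima. Between members, the lowest correlations were those of *Mxd4* with *Mycl* (r = −0.78) and with *Mycn* (−0.74).

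The wider pathway was examined through lists of genes that work with or under these factors or bind the same E-box. The difference averaged over the chase was used, in which 13.8% of all genes were higher and 12.5% lower. One list joined other MXD members, MLX partners and further E-box binding proteins, and of its 5 genes tested 2 were higher in STM2457 and 0 lower. They were the E-box binding *Usf2* (log2 fold change 0.25, adjusted p = 0.0001) and the MXD member *Mxi1* (0.45, adjusted p = 0.00068). *Mxd1* (−0.53, adjusted p = 0.013) and *Mlxip* (0.02, adjusted p = 0.90) did not pass. Of 16 cofactors and regulators of MYC protein turnover, 2 were higher, the kinase *Aurka*, which stabilizes MYCN protein (0.25, adjusted p = 1.9e-08), and the ubiquitin ligase subunit *Skp2* (0.20, adjusted p = 0.0033). The chromatin cofactors *Ruvbl2* (−0.20, adjusted p = 0.0022) and *Trrap* (−0.20, adjusted p = 0.0035) were the 2 that were lower. Of 11 SIN3 and NCOR corepressors of MXD and MNT, 5 were lower and 0 higher, among them the histone-binding *Rbbp7* (−0.23, adjusted p = 2.2e-10), *Sap30* (−0.37, adjusted p = 5.7e-06), the deacetylase *Hdac2* (−0.16, adjusted p = 0.00026) and *Sap18* (−0.20, adjusted p = 0.00095). The medians of these lists were 0.02, −0.004 and −0.03, beside −0.01 for all genes.

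Of 9 partners of MGA in the Polycomb complex PRC1.6, 1 was higher, *Rybp* (0.32, adjusted p = 2.3e-08), and 1 was lower, the heterochromatin protein *Cbx3* (−0.18, adjusted p = 0.0009), while *E2f6* (−0.20, adjusted p = 0.034) and *Ring1* (0.35, adjusted p = 0.049) did not pass. Of 28 MYC target genes of the nucleolus and growth, 5 were higher and 8 lower, against 13.8% and 12.5% of all genes, with a median of 0.01. The ribosome biogenesis factor *Rrs1* (0.42, adjusted p = 5.7e-14) and the RNA polymerase I subunit *Polr1b* (0.49, adjusted p = 1.5e-10) were higher, and the cyclin *Ccnd2* (−0.34, adjusted p = 3.1e-13) and *Bop1* (−0.37, adjusted p = 1.3e-10), another ribosome biogenesis factor, were lower. The MondoA and MLX targets *Txnip* (−0.26, adjusted p = 0.033) and *Arrdc4* (−0.09, adjusted p = 0.23) did not pass, with a median of −0.18. Between 0 and 12 h in DMSO, when *Mycn* fell, 10 of the 28 MYC targets fell and 0 rose, with a median log2 change of −0.18 beside 0.04 for all genes, of which 8.24% fell. This was not particular to MYC targets. Of 7 pluripotency genes 4 fell, with a median of −0.38, as did 3 of 11 corepressors, 2 of 9 PRC1.6 partners and 1 of 16 cofactors. In each of these lists 0 rose. A link to the fall of *Mycn* was not tested. In STM2457 over the same hours 4 of the 28 fell and 2 rose, with a median of −0.19 beside −0.001 for all genes, of which 3.12% fell and 1.72% rose. The difference between treatments in this change was called for 2 of the 28, both higher in STM2457, as were 0.916% of all genes.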

How the data were processed

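The authors mapped QuantSeq 3′ FWD reads to GRCm38.p6 with SLAM-DUNK 0.4.3, allowing up to 100 positions per read, masked T-to-C variants found in the merged unlabelled libraries, filtered the counted windows to GENCODE M23 and summed them per gene. Per the submitters' processing notes, FastQC 0.11.8 was used. The deposited counts are whole numbers of reads, multimapping reads, covered T positions and conversions per gene. The deposited conversion rate is a fraction, conversions over covered T positions, and the deposited CPM column was used only to find its scale. Reads mapping to several positions made up 22.5 to 28.8% of each library.

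Reads were tested with edgeR 4.0.16 (quasi-likelihood, TMM, low counts filtered, 18 groups in one fit, Benjamini-Hochberg adjusted p under 0.01). Conversions were tested with edgeR with covered T positions as offset (adjusted p under 0.05). Half-lives are exponential fits to background-subtracted rates, with limits of 0.67 to 18 h, a residual standard error under 0.3 and a mean T coverage over 100, compared with limma 3.58.1 and two-sided exact permutation tests. DESeq2 1.42.0 was an alternative, R was 4.3.3 and Python 3.11.15. Scripts were tested on simulated data. Counting error covers reads, not molecules, since no molecular identifiers were used.

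Groups came from the labels, which give time points by number, and the hours of chase came from the study's methods. How long the unlabelled cells had inhibitor is not given in the sources used here. Per the study's methods replicates were independent. Same-numbered libraries did not deviate together over 35 pairs of treatments (mean correlation 0.0097, 1 pair over 0.1), so numbers were not taken as pairs, and a series joins libraries with one number. No libraries were identical.

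All members were named, with up to 4 genes per list by smallest adjusted p in the averaged difference and the 3 genes most correlated with each member. The members and lists were chosen with earlier results of these data known. Transcript positions are from GENCODE M21 (GRCm38) and promoters from RefSeq.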

Additional observations from a re-analysis of the deposited data

Results flagged for a closer look

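Of 153 groups of 4 libraries (9 genes in 17 groups), 18 held a library far from the other 3 by Dixon's test, which flags about 1 in 20 groups by chance. For *Mycn* these were the highest DMSO library at 0 h (107 CPM, the others 98.5 to 99.7) and the lowest unlabelled STM2457 library (91.0 CPM, the others 111 to 114). For *Max* they were the highest DMSO library at 8 h (129 CPM, the others 106 to 109) and the lowest STM2457 library at 0 h (119 CPM, the others 143 to 148). For *Mga* all were in STM2457, namely the highest at 0 h (66.2 CPM, the others 46.4 to 48.7), 1.5 h (51.1 CPM, the others 38.6 to 40.3) and 12 h (43.2 CPM, the others 34.3 to 35.6) and the lowest at 8 h (30.1 CPM, the others 38.2 to 38.8).

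For *Mnt* the highest library at 12 h stood apart in DMSO (33 CPM, the others 19.8 to 21.9) and in STM2457 (40.1 CPM, the others 27.8 to 28.1). For *Mlx* and *Mxd3* it was the highest STM2457 library at 12 h (96.3 CPM, the others 89.3 to 90.3, and 12.7 CPM, the others 10.4 to 10.7). For *Mxd4* it was the lowest DMSO library at 2.3 h (11.9 CPM, the others 20.4 to 21.4) and the lowest STM2457 library at 12 h (10.7 CPM, the others 15.9 to 16.9).

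The sparse genes gave 4 further libraries. For *Myc* they were the highest unlabelled DMSO library (12.4 CPM, the others 4.57 to 4.85), the lowest STM2457 library at 1 h (1.52 CPM, the others 5.32 to 5.49) and the highest at 5.3 h (4.40 CPM, the others 0.194 to 0.522). For *Mycl* it was the lowest unlabelled DMSO library (5.72 CPM, the others 8.38 to 8.89).

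The change of *Mycn* reads from 0 to 12 h differed between treatments by 1.38 on the log2 scale (edgeR interaction, adjusted p = 4.8e-06).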

How the results depend on the processing

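The calls of *Mycn* in reads (averaged, at 8 and 12 h, the changes from 0 to 12 h and their difference) and of *Max* averaged over the chase were kept in all 16 alternatives run. At an adjusted p under 0.05 the genes called were 456 at 0 h, 1237 at 12 h, 2814 and 1216 for 12 h against 0 h in DMSO and STM2457, 302 for the difference of these changes, 741 without s4U, and 157 and 189 for 0 h against unlabelled in DMSO and STM2457. With the groups of the contrast alone they were 1056 at 12 h, 981 for 12 h against 0 h in STM2457, 211 for the difference, 111 without s4U and 14 for 0 h against unlabelled in DMSO. With covered T positions per read as a covariate, chosen after seeing the data, they were 256 for the difference and 129 and 156 for 0 h against unlabelled, and DESeq2 gave 118 for the latter in STM2457. With 2.3, 3.5, 8 and 12 h alone, also chosen afterwards, 1710 genes were called in the averaged difference, against 3329. The cause was not tested. Without 1 replicate the counts ranged from 2713 to 3463 averaged, 123 to 171 at 0 h, 532 to 631 at 12 h, 1007 to 1723 and 243 to 707 for 12 h against 0 h in DMSO and STM2457, 82 to 126 for the difference, 133 to 412 without s4U, and 21 to 70 and 24 to 86 for 0 h against unlabelled. With the replicate number as a block 3352 genes were called averaged and limma called 0 half-lives, and no pairing was assumed. The block changed no member's call.

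Values that reversed were all uncalled. In reads they were *Mycl* at 12 h (−0.0044 with total counts), *Max* from 0 to 12 h (−0.026 in DMSO with the covariate, 0.0327 in STM2457 with total counts), *Mga* in DMSO (0.079 with total counts, 0.0781 with the covariate), *Mxd4* in STM2457 (−0.0187 with the covariate) and the difference of *Mxd3* (−0.011 without multimapping reads). In conversions with the library's rate in the offset they were *Mga* (0.21 in DMSO, 0.13 in STM2457), *Mlx* (0.0736) and *Mycl* (0.12) in STM2457, with *Myc* at −0.39 with the covariate and *Mycl* at 0.29 in reads with conversions. The half-life ratio of *Mga* was 0.12 without background subtraction and 0.0775 over 0 to 5.3 h. Without 1 replicate, the averaged difference ranged from −0.0145 to 0.0669 for *Mga* and −0.0997 to 0.0536 for *Mxd3*, that at 12 h from −0.414 to 0.288 for *Myc* and −0.328 to 0.182 for *Mycl*, and the change from 0 to 12 h from −0.0119 to 0.173 for *Max* in DMSO and −0.0963 to 0.518 for *Mxd4* in STM2457. Early label loss ranged in DMSO from −0.135 to 0.0153 for *Mga* and −0.617 to 0.261 for *Mxd3*, and in STM2457 from −0.0642 to 0.1996 for *Myc* and −0.786 to 0.447 for *Mycl*. Half-life ratios ranged from −0.0822 to 0.0812 for *Mga* and −0.706 to 0.328 for *Mxd4*.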
